A study of Mus musculus with 4 samples.

Results

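Chemokines are small secreted proteins that steer migrating cells, and the 54 genes described here comprised 35 chemokine ligands and 19 of their receptors. They were taken by gene name, as all non-control probes whose name in the scanner files was that of a Cxcl, Ccl, Cx3cl1 or Xcl1 ligand or of a Cxcr, Ccr, Cx3cr1 or Xcr1 receptor. This gave 70 of the 55681 probes and 54 of the 23073 named genes on the array, and 42 of the 54 genes (28 ligands and 14 receptors) passed a filter on dim signal and were tested.

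The study hybridised RNA of primary odontoblasts, the cells that lay down dentin, in the Cy5 channel against RNA of calvarial osteoblasts, the bone-forming cells of the skull vault, in the Cy3 channel. Both came from 2-week-old mice that carried an EGFP transgene under a 2.3 kb fragment of the type I collagen promoter, and EGFP-positive cells were sorted after enzymatic digestion of dental pulp (C57BL/6 mice, per the labels) and of calvarial bone from matched donors. This promoter marks collagen-producing cells and not odontoblasts alone or osteoblasts alone, and the labels give neither the number of animals per array nor a strain for the osteoblast channel. There were 4 arrays, numbered 1 to 4 as in the labels, each with 1 RNA per channel, all on 1 slide and with the dyes in the same orientation, so dye and cell type cannot be told apart.

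All ratios are log2 of Cy5 over Cy3, and levels are normalized log2 intensities of 1 channel, which have no common scale between probes, so levels were compared only within a probe. The term brightest means the highest mean intensity of a probe and served only to choose which genes are named, and the summed intensities given for marker lists follow their brightest probes. A gene was called when limma's moderated test of the mean ratio against 0 had a Benjamini-Hochberg adjusted p under 0.05 over all 37366 features. The labels do not say that the 4 arrays came from separate animals, so p-values cover the spread among arrays only, which may be technical in part. Spots exceeded their local background by a median factor of 7.10 to 8.21 in Cy5 and 10.9 to 15.96 in Cy3, and ratios correlated between arrays with r of 0.30 to 0.49 over the probes kept. Of 19012 genes tested, 417 were called, and their median ratio was 0.01.

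The odontoblast and osteoblast markers called all went against the dye labels. Of the 9 odontoblast markers tested, 3 were called higher in Cy3 (Wnt10a, Bmp7 and Sall1). Of the 12 osteoblast markers, 4 were called higher in Cy5 (Ifitm5, Pth1r, Phospho1 and Col1a2). The odontoblast marker Dspp, whose product is cleaved into dentin sialoprotein and phosphoprotein, had ratios of -2.98, -1.79, -1.80 and -1.21 on arrays 1 to 4 and was not called (adjusted p = 0.0601), nor was Nes, which encodes nestin (mean -2.00, adjusted p = 0.0688). Ifitm5, a bone-restricted membrane protein of osteoblasts, averaged 5.05 (adjusted p = 0.0167). The other markers were not uniform: the odontoblast markers Smpd3, Phex and Cpne7 had positive means of 1.41, 0.38 and 0.29, and the osteoblast markers Sp7 and Alpl had means of 0.02 and 0.05, none of them called. The markers named were picked with these values known. The channels are therefore named here by dye together with their label, and no ratio is read as a property of either cell type.

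Chemokines bind G-protein-coupled receptors on leukocytes and stromal cells and are held on tissue surfaces by glycosaminoglycans. CXC ligands with the ELR motif, such as Cxcl1 and Cxcl2, attract neutrophils, Cxcl9 to Cxcl11 are induced by interferons and bind Cxcr3, the Ccl2 and Ccl3 groups attract monocytes and other leukocytes, and Cxcl12 retains haematopoietic cells in bone marrow. Many inflammatory ligands are transcribed within minutes to hours of NF-kB activation, and bone and dental pulp both contain resident macrophages that make and receive these signals.

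The promoters of 6 ligands are shown because Cxcl1, Cxcl2, Cxcl3 and Cxcl10 were among the ligands with large ratios of both signs, whereas Ccl8 and Cxcl12 kept 1 direction on every array. Each line gives the 250 bases before the transcription start from RefSeq, build GRCm38.p6, 5′ to 3′ on the gene's strand, and capitals mark matches to GGAATTTCC and GGGANNTTC (forms of the NF-kB site that overlap each other), GAAANNGAA (from the interferon-stimulated element) and TATAAA, searched on both strands.
Cxcl1: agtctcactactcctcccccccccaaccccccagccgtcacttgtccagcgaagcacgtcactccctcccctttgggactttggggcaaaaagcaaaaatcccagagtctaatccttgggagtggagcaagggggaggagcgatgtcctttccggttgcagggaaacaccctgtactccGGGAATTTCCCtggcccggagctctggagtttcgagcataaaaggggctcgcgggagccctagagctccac
Cxcl2: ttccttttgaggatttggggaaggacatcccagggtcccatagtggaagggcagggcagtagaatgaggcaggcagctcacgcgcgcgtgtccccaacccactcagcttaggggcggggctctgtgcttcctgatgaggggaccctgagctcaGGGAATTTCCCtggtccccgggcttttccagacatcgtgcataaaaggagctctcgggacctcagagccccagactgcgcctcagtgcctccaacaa
Cxcl3: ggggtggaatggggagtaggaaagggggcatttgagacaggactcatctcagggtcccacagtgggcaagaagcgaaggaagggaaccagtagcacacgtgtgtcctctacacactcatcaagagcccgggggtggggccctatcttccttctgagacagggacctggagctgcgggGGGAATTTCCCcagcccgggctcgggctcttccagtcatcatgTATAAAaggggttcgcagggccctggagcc
Cxcl10: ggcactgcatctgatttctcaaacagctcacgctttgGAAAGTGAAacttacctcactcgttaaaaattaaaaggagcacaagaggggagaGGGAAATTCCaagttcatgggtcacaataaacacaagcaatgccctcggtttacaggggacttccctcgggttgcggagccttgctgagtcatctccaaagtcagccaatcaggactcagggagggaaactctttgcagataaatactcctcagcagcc
Ccl8: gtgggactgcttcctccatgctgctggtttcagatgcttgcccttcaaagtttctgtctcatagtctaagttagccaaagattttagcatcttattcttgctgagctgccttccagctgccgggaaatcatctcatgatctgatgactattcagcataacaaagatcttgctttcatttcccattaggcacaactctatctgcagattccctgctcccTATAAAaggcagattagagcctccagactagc
Cxcl12: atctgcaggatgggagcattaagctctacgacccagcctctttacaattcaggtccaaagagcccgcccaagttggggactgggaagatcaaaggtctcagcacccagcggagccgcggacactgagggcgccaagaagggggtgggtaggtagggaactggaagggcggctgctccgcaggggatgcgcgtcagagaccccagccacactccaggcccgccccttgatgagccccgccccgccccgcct
These windows lie at chr5:90890995-90891244, chr5:90903649-90903898, chr5:90785851-90786100, chr5:92348890-92349139 (minus strand), chr11:82114935-82115184 and chr6:117168285-117168534, in the order shown.

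The site GGAATTTCC began 70, 96 and 72 bases before the start of Cxcl1, Cxcl2 and Cxcl3, and Cxcl10 held it on the other strand, from 158 bases before its start. Of the 39 chemokine and receptor genes with a promoter window in the RefSeq table, 5 held it (12.8%), these 4 and the receptor gene Ccr3, against 94 of all 32851 windows (0.286%). GGGANNTTC was in 8 of the 39 member windows (20.5%), against 3.23% of all windows, and in each of the 5 genes just named. Cxcl10 also held GAAANNGAA, from 213 bases before its start, as did 7 other members, among them Cxcl9 and Ccl19, against 7.13% of all windows. None of these 3 forms was found in the Ccl8 or Cxcl12 window, and TATAAA lay 32 bases before the start of Ccl8. Ccl19, which also had large ratios of both signs, held neither NF-kB form, and Cxcl9 held only GGGANNTTC of them. Ccl2 and Cxcl16, with ratios of both signs as well, were not among the genes with a match, for want of a match or of a window. The windows shown are thus a selection, and a relation between the site and the ratios was not tested. A match describes letters in these windows and is not evidence of a bound factor.

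Across the 42 members tested, 1 was called higher in Cy5 (Ccl8) and 0 were called higher in Cy3, which is 1 of 42 against 1.3% and 0.894% of all genes tested. At an unadjusted p under 0.05, 11 members had a higher mean in Cy5, against 11.3% of genes, and 0 had a higher mean in Cy3, against 10.1%. Some of the 11, among them Ccl9, Ccl11 and Cx3cr1, passed the filter through Cy5 alone, which favours a higher mean in Cy5. The median ratio was 0.92 over the 28 ligands and -0.08 over the 14 receptors, against 0.01 over all genes. These are bulk RNAs, so more cells that make a ligand and more RNA of it per cell cannot be told apart. The arrays lay far apart for many ligands: 15 of 28 ligands and 0 of 14 receptors had ratios that spanned at least 4 on the log2 scale between arrays, against 3.39% of all genes.

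**Figure D1:**
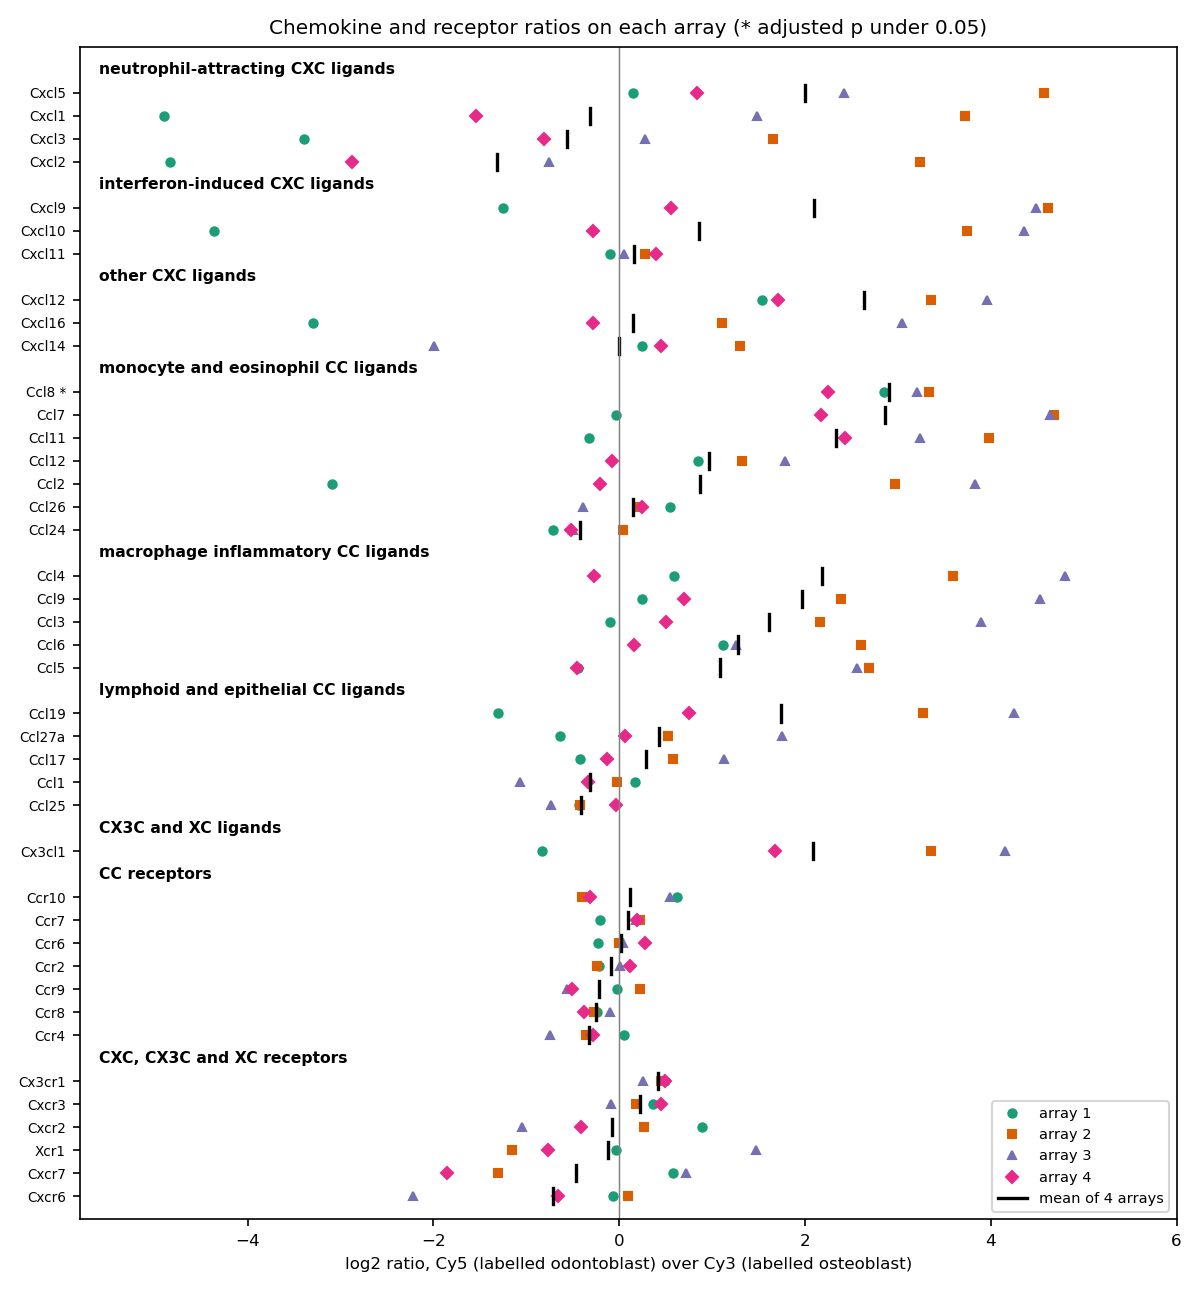
Log2 ratio of Cy5 (labelled odontoblast) over Cy3 (labelled osteoblast) for 41 of the 42 members tested, grouped by role, with 1 point per array and a bar at the mean of 4 arrays; the asterisk marks an adjusted p under 0.05. Ligands spread widely between arrays (Cxcl1 from -4.90 to 3.72), and Ccl8 keeps all 4 arrays between 2.25 and 3.33. The receptors shown have means between -0.71 (Cxcr6) and 0.42 (Cx3cr1), with single points from -2.21 (Cxcr6) to 1.47 (Xcr1).

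Ccl8, a monocyte-attracting CC ligand, was the member that passed the test. Its level was 10.28, 11.01, 11.24 and 10.07 in Cy5 and 7.43, 7.68, 8.04 and 7.82 in Cy3 on arrays 1 to 4. Every Cy5 level lay above every Cy3 level, by about the same distance on each array. The ratios were 2.85, 3.33, 3.20 and 2.25, with a mean of 2.91 (SE 0.24), which is a 7.51-fold difference (limma adjusted p = 0.0144). The probe lies at chr11:81930108-81930167 on mm9, and it was detected in either channel on each array. Ccl8 stayed called without array 3 (adjusted p = 0.0448) and was not called without array 1 (0.0797), without array 2 (0.0723) or without array 4 (0.0597), while its mean ratio stayed between 2.77 and 3.13 in these fits.

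Markers of macrophages and monocytes, cells known to make Ccl8, stood beside it. Of 13 macrophage and monocyte markers tested, 3 were called higher in Cy5 (Lyz2, which encodes lysozyme, Laptm5, a lysosomal membrane protein of blood cells, and the mannose receptor gene Mrc1) and 0 higher in Cy3, with a median ratio of 1.87. Their summed intensity ranged from 115438 to 213167 in Cy5 and from 79858 to 110394 in Cy3, and no listed marker was below background in Cy5 on every array. Of these sums, 31.7% to 63.5% in Cy5 and 65.3% to 70.7% in Cy3 came from 1 probe, that of the integrin gene Itgam, whose mean ratio was 0.17 (adjusted p = 0.684). Csf1r, the growth factor receptor gene of the lineage, had a mean ratio of -0.39 (adjusted p = 0.285), and Cd68 one of -0.10 (adjusted p = 0.841). These 6 markers were named after their values were seen, and the part of these cells in the Ccl8 ratio was not tested.

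Cxcl12, the stromal ligand of Cxcr4, had ratios of 1.53, 3.35, 3.96 and 1.71 on arrays 1 to 4. Its level was 11.22, 13.17, 11.75 and 12.24 in Cy5 and 9.68, 9.82, 7.79 and 10.54 in Cy3, so the channels did not overlap. Ccl8 and Cxcl12 were the 2 members of 42 whose Cy5 levels all lay above their Cy3 levels, against 7.92% of all genes, and no member had the opposite, against 6.52%. The mean ratio of Cxcl12 was 2.64 (SE 0.47), a 6.22-fold difference that missed the threshold (limma adjusted p = 0.0737). With median centring in place of loess it passed, with a mean of 2.87 and an adjusted p of 0.0347. A second Cxcl12 probe, at chr6:117125026-117125085 (mm9), was too dim for the filter and had ratios of 0.41, 1.08, 0.27 and 1.06, positive on every array but smaller than those of the tested probe at chr6:117131227-117131286.

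Genes linked to Cxcl12-rich stromal cells of the bone marrow niche, not all of them markers of these cells, were listed beside it. Ebf1, a transcription factor of such cells and of B cells, was higher in Cy5, with levels of 12.02, 12.88, 13.03 and 12.91 in Cy5 and 6.98, 8.40, 7.999 and 8.92 in Cy3. Its ratios of 5.04, 4.48, 5.03 and 3.99 were close together, and their mean was 4.63 (limma adjusted p = 0.00614). Ebf1 was 1 of the 9 niche genes tested that was called, against 1.3% of all genes called higher in Cy5. An unadjusted p under 0.05 was reached by 6 of the 9, all toward Cy5, against 11.3% of genes. The 6 were Ebf1, Spp1, Vcam1, Foxc1, Ebf3 and Angpt1, and Ebf3 and Angpt1 passed the filter through Cy5 alone. The rest of those tested showed little difference by limma: Lepr (mean -0.01, adjusted p = 0.983), Kitl (mean 0.28, adjusted p = 0.579) and Hif1a (mean -0.21, adjusted p = 0.731). Il7, also on the list, was never above background in either channel. The brightest uncalled niche genes were Spp1, which encodes osteopontin and is also in the osteoblast list (mean 3.06, adjusted p = 0.105), and the adhesion molecule gene Vcam1 (mean 3.18, adjusted p = 0.244), whose ratios ran from -0.96 on array 1 to 6.72 on array 2. The Ebf1 call was kept without array 3 (adjusted p = 0.032) and without array 4 (0.0445), and was lost without array 1 or array 2.

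Markers of fibroblasts and periosteum, stromal cells of another kind, also had high ratios. Of 9 tested, 5 were called higher in Cy5 and 0 higher in Cy3, and the list's median ratio was 2.64, against 0.96 for the niche genes. The 5 were the tendon and ligament gene Tnmd (mean 5.55), the matrix genes Aspn (4.89), Dpt (4.46) and Lum (2.38), and Thy1, a surface protein of fibroblasts and T cells (4.58), with limma adjusted p-values of 0.00543 (Dpt) to 0.0382 (Lum). Postn and Pdgfra, of the same list, had means of -1.62 (adjusted p = 0.0954) and -1.05 (adjusted p = 0.125). These genes were named after their values were seen, and the part of any stromal cell type in the Cxcl12 ratio was not tested.

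The neutrophil-attracting CXC ligands had large ratios of both signs. Cxcl1 had ratios of -4.90, 3.72, 1.48 and -1.54 on arrays 1 to 4. Its Cy5 level was 10.59, 15.96, 15.98 and 11.39, and its Cy3 level 15.49, 12.24, 14.50 and 12.92. The Cy5 level was high on arrays 2 and 3 and low on arrays 1 and 4, whereas the Cy3 level was highest on array 1, so the channels overlapped and the mean of -0.31 (SE 1.40, adjusted p = 0.923) describes none of the arrays. Of all genes tested, 0.0368% had an SD between arrays at least as large as that of Cxcl1.

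Cxcl2, which shares the receptor Cxcr2 with Cxcl1, had ratios of -4.84, 3.23, -0.76 and -2.88. Its level was 8.47, 14.46, 14.06 and 7.28 in Cy5 and 13.31, 11.22, 14.81 and 10.16 in Cy3. Array 3 was bright in both channels, array 4 dim in both, and array 2 was the 1 array on which Cy5 exceeded Cy3. Its mean of -1.31 (SE 1.29, adjusted p = 0.616) was the lowest of the 42 members, and Cxcl2 was the 1 member with a mean of at most -1, against 5.11% of genes.

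Cxcl3, of the same subgroup, had ratios of -3.39, 1.66, 0.28 and -0.80, with levels of 5.86, 8.99, 11.53 and 5.98 in Cy5 and 9.26, 7.33, 11.25 and 6.79 in Cy3. It was well above background on 2 arrays in Cy5 and on 4 in Cy3. The order of its ratios over the arrays was the same as for Cxcl1 and Cxcl2. Cxcl5, an epithelial and stromal ligand of Cxcr2, differed from these 3 in having no negative ratio: its values were 0.15, 4.58, 2.42 and 0.84 (mean 2.00, adjusted p = 0.242). Cxcl15 was above background on 2 arrays in Cy5 and on none in Cy3, and was not tested.

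Markers of neutrophils, the cells these ligands attract, had a median ratio near 0 but single genes with large values. None of the 8 tested was called by limma, with 1 gene in each direction at an unadjusted p under 0.05, and the median of their mean ratios was -0.30. On arrays 1 to 4 the list's median ratio was -0.44, -0.11, 0.07 and 0.00. S100a9, a calcium-binding protein of neutrophils, had -3.64, 0.37, 0.17 and -0.62 and was the 1 marker that spanned at least 4. The collagenase gene Mmp8 had 2.98, 0.57, 0.48 and 0.59, and Ly6g, a surface marker of mouse neutrophils, had 0.91, 2.56, 0.32 and 1.35, so both were positive on all arrays. Elane, with -0.64, -0.40, -0.67 and -0.47, and Csf3r, with -0.59, -0.17, -0.57 and -0.15, were negative on all arrays. The summed intensity ranged from 54536 to 69708 in Cy5 and from 63854 to 82185 in Cy3, and at least 89.3% of it on every array came from the probe of the receptor gene Csf3r, so it says little about the other markers. The choice of S100a9, Mmp8, Ly6g, Elane and Csf3r for naming was made with their values known. The receptor genes of these ligands were dim or near 0: Cxcr2 had ratios of 0.89, 0.26, -1.05 and -0.41, and Cxcr1 was above background on 1 array in Cy5 and none in Cy3.

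The interferon-induced CXC ligands were next. Cxcl10, a ligand of Cxcr3, had ratios of -4.36, 3.74, 4.35 and -0.29. Its level was 8.23, 14.17, 14.64 and 9.08 in Cy5 and 12.59, 10.43, 10.29 and 9.37 in Cy3. The Cy5 level was again high on arrays 2 and 3, and the Cy3 level was highest on array 1. Only 0.021% of genes had an SD between arrays at least as large, and the mean of 0.86 (SE 1.51) had an adjusted p of 0.79. A dimmer second probe, at chr5:92776616-92776675 against chr5:92775781-92775840 for the tested probe (mm9), had ratios of 0.02, 0.25, 1.03 and -0.09, which did not show the negative value on array 1.

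Cxcl9, which attracts T cells through Cxcr3, had ratios of -1.26, 4.61, 4.48 and 0.55, with levels of 10.24, 15.09, 15.05 and 12.27 in Cy5 and 11.49, 10.48, 10.57 and 11.71 in Cy3. Arrays 2 and 3 again stood above arrays 1 and 4. A second Cxcl9 probe, at chr5:92752191-92752250 (mm9), had ratios of 0.82, 5.76, 5.16 and 2.04 and never rose well above background in Cy3. On that probe the mean Cy5 level was at least 9.56-fold above the mean Cy3 level. This lower bound takes, per array, the larger of the probe's own Cy3 level and the lowest Cy3 level of any probe well above background. The mean of these is set against the mean Cy5 level, so the bound holds for the mean and not for each array. The brighter Cxcl9 probe had a mean of 2.10 (SE 1.10, adjusted p = 0.363), and the 2 probes differed in sign on array 1.

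Cxcl11, the remaining Cxcr3 ligand of this group, had ratios of -0.10, 0.28, 0.05 and 0.40 and thus none of the swings of Cxcl9 and Cxcl10. Its tested probe, at chr5:92788567-92788626 (mm9, minus strand), shares 20 or more bases with probes of 7 other features, among them Elk1, Glrx2 and Med16. Bases 10 to 39 of the probe are shown because the 20 capitals occur in probes of 6 other features.
Cxcl11 probe: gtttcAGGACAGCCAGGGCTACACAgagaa
Its signal may thus include other transcripts, and it is uncertain as a measure of Cxcl11. The other Cxcl11 probe, at chr5:92788640-92788699, shared no such stretch and had ratios of -1.02, -0.54, -1.03 and -0.82. That probe was higher in Cy3 on every array, whereas the brighter one had 1 negative and 3 positive ratios.

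Of 12 genes that carry the interferon signal to these ligands, 2 were called, both higher in Cy5. Irf7, the transcription factor that amplifies type I interferon, had ratios of 4.61, 2.06, 3.27 and 3.38 (mean 3.33, adjusted p = 0.0337), and Stat2 had 2.53, 2.12, 2.48 and 2.17 (mean 2.33, adjusted p = 0.0118). Both were positive on all 4 arrays, including array 1, on which Cxcl9 and Cxcl10 were negative. Without array 3 Stat2 stayed called (adjusted p = 0.038) and Irf7 did not, and neither was called without array 1, without array 2 or without array 4. The brightest uncalled members were the receptor chain genes Ifnar2 (mean 0.20, adjusted p = 0.618) and Ifnar1 (mean 0.43, adjusted p = 0.407).

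**Figure D2:**
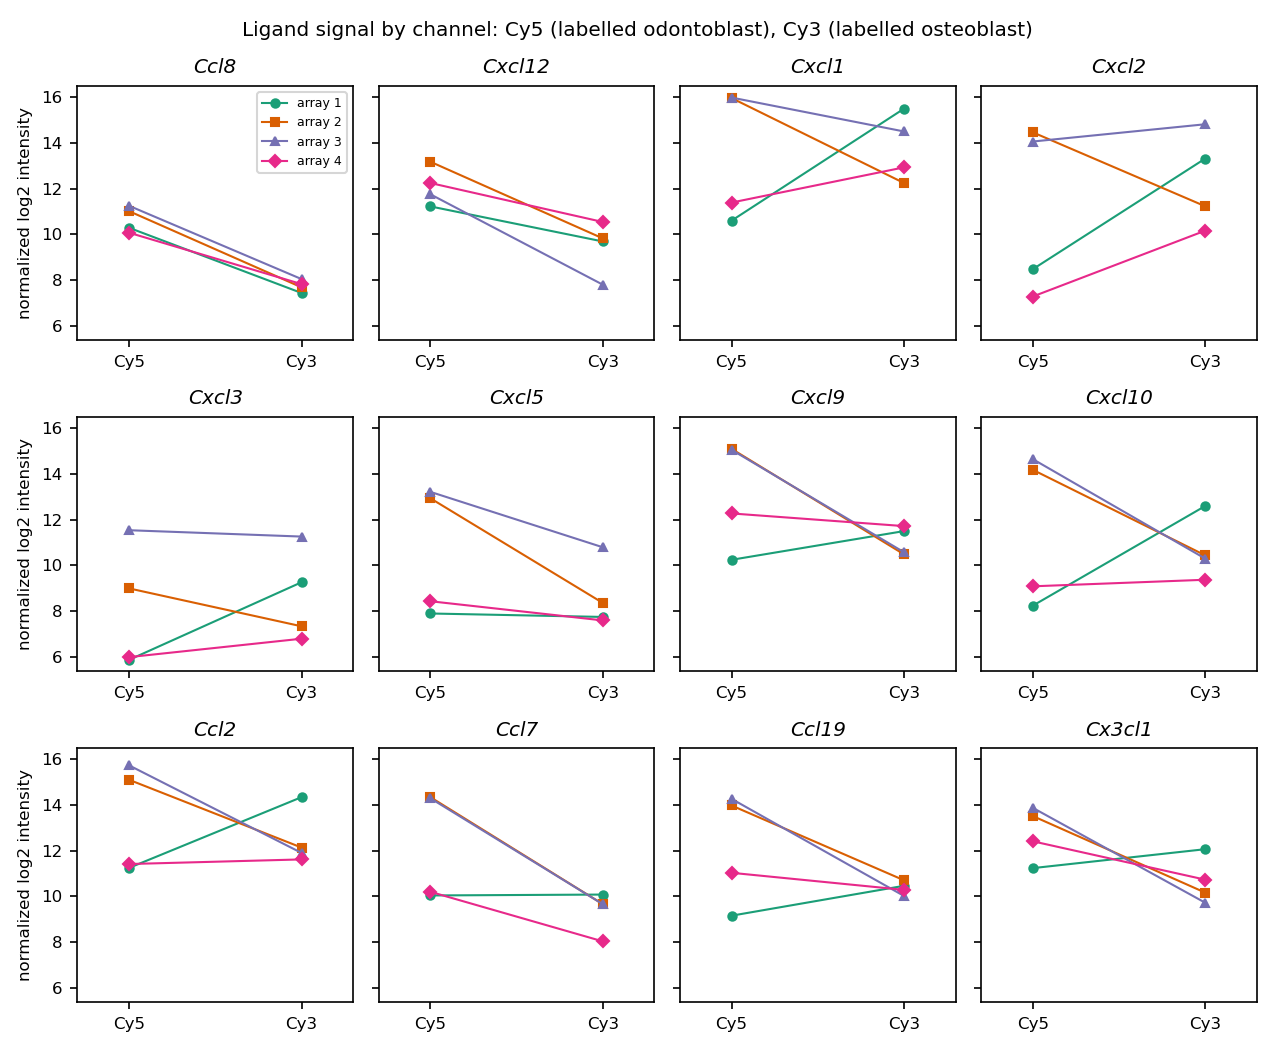
Normalized log2 intensity of 12 ligands in Cy5 (labelled odontoblast, left) and Cy3 (labelled osteoblast, right), with 1 line per array. Ccl8 and Cxcl12 slope the same way on all 4 arrays, while the lines of Cxcl1, Cxcl2, Cxcl3, Cxcl10 and Ccl2 cross, with array 1 sloping up toward Cy3.

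Among the other CXC ligands, Cxcl16, a membrane-bound ligand of Cxcr6, had ratios of -3.29, 1.11, 3.05 and -0.28. Its level was 8.67, 10.14, 11.24 and 8.16 in Cy5 and 11.96, 9.03, 8.19 and 8.45 in Cy3, so the Cy3 level of array 1 lay above all its other levels. Cxcl14, a ligand of epithelia and mesenchyme, had 0.24, 1.2997, -2.00 and 0.45, and its negative value fell on array 3. Cxcl13, the B cell attractant, was below background throughout, and Cxcl17 was above background on 2 arrays in Cy5 and on 1 in Cy3.

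The monocyte and eosinophil CC ligands are encoded next to each other on chromosome 11 except for Ccl24 and Ccl26, which lie on chromosome 5. Ccl2, the main monocyte attractant, had ratios of -3.09, 2.96, 3.83 and -0.20. Its level was 11.24, 15.09, 15.73 and 11.41 in Cy5 and 14.33, 12.13, 11.90 and 11.61 in Cy3. The pattern matched that of Cxcl10: Cy5 high on arrays 2 and 3, Cy3 highest on array 1. Its mean of 0.87 had an SE of 1.18 (adjusted p = 0.72), and 0.126% of genes had an SD between arrays at least as large.

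Ccl7, a second ligand of Ccr2, had ratios of -0.04, 4.68, 4.64 and 2.17, with levels of 10.03, 14.34, 14.29 and 10.19 in Cy5 and 10.07, 9.66, 9.65 and 8.03 in Cy3. Its mean of 2.86 was close to that of Ccl8, but the SE was 0.85 and the adjusted p 0.179, since array 1 showed no difference between channels. Ccl12, a mouse ligand of Ccr2, had 0.85, 1.33, 1.78 and -0.08 (mean 0.97, adjusted p = 0.216). Ccl11, or eotaxin, had ratios of -0.32, 3.99, 3.24 and 2.43 and was above background on 3 arrays in Cy5 and on none in Cy3. Its difference between channel means, toward Cy5, came to at least 4.78-fold, with an adjusted p of 0.185. This bound does not hold for each array. Ccl24 and Ccl26, the other eotaxin-like ligands, had mean ratios of -0.42 (adjusted p = 0.32) and 0.15 (adjusted p = 0.736).

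All 5 macrophage inflammatory CC ligands had mean ratios of at least 1, against 7.55% of genes, and none was called. Ccl3, Ccl4 and Ccl9 passed the filter through Cy5 alone, the channel in which they were higher, so this count does not support a direction. Ccl4, an attractant of monocytes and lymphocytes, had ratios of 0.59, 3.59, 4.80 and -0.27 (mean 2.18, adjusted p = 0.278), and Ccl3, which binds Ccr1, had -0.10, 2.16, 3.90 and 0.51 (mean 1.62, adjusted p = 0.284). Both were above background on 3 arrays in Cy5 and on none in Cy3. The mean Cy5 level was at least 4.29-fold higher for Ccl4 and at least 2.81-fold higher for Ccl3, which does not hold for each array. Their 2 probes showed the difference on arrays 2 and 3, with ratios under 1 in size on arrays 1 and 4.

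Ccl5, or RANTES, had ratios of -0.45, 2.69, 2.55 and -0.45 (mean 1.09, adjusted p = 0.435). Ccl9, a mouse ligand of Ccr1, had 0.25, 2.38, 4.52 and 0.70 (mean 1.96, adjusted p = 0.243), and Ccl6, its close relative, had 1.11, 2.60, 1.26 and 0.16 (mean 1.28, adjusted p = 0.192). Ccl6 and Ccl9 were positive on all arrays. Over all 42 members, 7 were positive on all 4 arrays (among them Ccl6, Ccl8, Ccl9, Cx3cr1, Cxcl5 and Cxcl12), against 16% of genes, and 2 were negative on all 4 (Ccl25 and Ccr8), against 15.4%. Among the positive genes, Ccl9 and Cx3cr1 passed the filter through Cy5 alone.

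Among the lymphoid and epithelial CC ligands, Ccl19, the Ccr7 ligand that draws T cells and dendritic cells, varied most between arrays. Its ratios were -1.31, 3.27, 4.25 and 0.75, with levels of 9.15, 13.97, 14.26 and 11.03 in Cy5 and 10.46, 10.699, 10.01 and 10.28 in Cy3. The Cy3 levels spanned 0.69 log2 units, while the Cy5 levels spanned 5.11. The other Ccl19 probes had the same signs on every array, with ratios of -2.21, 5.31, 4.75 and 0.47 for one and -1.45, 4.07, 3.48 and 0.76 for the other. The mean of the brightest probe was 1.74 (SE 0.95, adjusted p = 0.38).

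The remaining ligands of this group lay closer to 0. Ccl27a, a skin ligand of Ccr10, had ratios of -0.64, 0.53, 1.76 and 0.06, and another of its probes, which shares 20 bases with a probe of another feature, had 0.50, -0.34, 1.08 and -0.62. Ccl17, a ligand of Ccr4, had -0.42, 0.58, 1.13 and -0.13, and Ccl1, a ligand of Ccr8, had 0.17, -0.02, -1.07 and -0.33. Ccl25, a ligand of Ccr9, was negative on all arrays (-0.43, -0.42, -0.74 and -0.04, adjusted p = 0.316), but a second probe at chr8:4327833-4327892 (mm9) had 0.77, -0.16, -3.10 and 0.39. Ccl22 and Ccl28 were below background throughout, and Ccl20 was above it on 2 arrays in Cy5 and on none in Cy3.

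Cx3cl1, or fractalkine, a membrane-anchored ligand of Cx3cr1, had ratios of -0.83, 3.35, 4.15 and 1.68. Its level was 11.23, 13.51, 13.87 and 12.40 in Cy5 and 12.06, 10.16, 9.72 and 10.72 in Cy3. On array 1 Cy3 was the brighter channel and on the other arrays Cy5 was, and the mean of 2.09 (SE 0.83) had an adjusted p of 0.263. Xcl1, a lymphocyte product, was above background on 2 arrays in Cy5 and on 1 in Cy3 and was not tested.

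The level spanned more between arrays in Cy5 than in Cy3 for most ligands, though dim genes limit this comparison. The level spanned at least 4 log2 units between arrays for 13 of 28 ligands in Cy5 and for 2 of 28 in Cy3, against 0.563% and 1.19% of all genes. Among the 13 were Ccl3, Ccl4 and Ccl11, never well above background in Cy3, and Ccl9, above it there on 2 arrays. For these genes a wide span in Cy3 could hardly show, so their channels cannot be compared in this way. They remain in the counts and medians given here, which thus lean toward Cy5. The rest of the 13 were well above background in Cy3 on all 4 arrays, but 1 of them, Cxcl3, was so in Cy5 on 2 arrays only. The span was wider in Cy5 than in Cy3 for 23 of 28 ligands, against 38.7% of genes, and for 6 of 14 receptors. The median span of the ligands was 3.13 in Cy5 and 1.37 in Cy3, and over all genes it was 0.79 in Cy5 and 0.97 in Cy3.

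Counted by array, ligands with a ratio of at least 1 numbered 3, 21, 20 and 5 of 28 on arrays 1 to 4, against 11%, 10.4%, 19.9% and 7.71% of genes. Ligands with a ratio of at most -1 numbered 8, 0, 2 and 2, against 11.1%, 10.3%, 13.9% and 6.9% of genes. Arrays 2 and 3 thus carried most of the high ratios and array 1 most of the low ones. The median ratio of the 28 ligands was -0.37, 2.65, 2.49 and 0.11 on arrays 1 to 4, and that of the 14 receptors was 0.01, 0.05, 0.03 and -0.29. The median of all genes lay between -0.01 and 0.04 on every array.

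Genes of the NF-kB pathway and of inflammatory signals that induce chemokines differed among themselves. None of the 21 tested was called by limma, with 1 gene in each direction at an unadjusted p under 0.05, and their median ratio was -0.31. On arrays 1 to 4 that median was -1.14, 0.72, 0.31 and -0.44, and 5 of the 21 spanned at least 4 between arrays. The 5 are Tnf, Nfkbia, Nfkbie, Tnfaip3 and Tlr2, named after their values were seen, except Nfkbia, which with Nfkbib (mean -0.68, adjusted p = 0.473) was the brightest of the list. Ratios were negative on arrays 1 and 4 and positive on arrays 2 and 3 for 8 of the 21, for 7 of the 28 ligands and for 0 of the 14 receptors, against 4.08% of all genes. This pattern was itself taken from the values of these ligands and genes, so the shares support no conclusion. The other 13 genes of the list ran otherwise, among them Tlr4, with 0.68, 0.18, -2.23 and -0.27, Rela, with -1.53, 0.17, -1.52 and -0.84, and Chuk, with 0.09, -0.26, -0.82 and 0.04, also picked with their values known. On array 4 the list's median and that of the ligands (0.11) had opposite signs.

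Tnf, the cytokine that activates NF-kB, had ratios of -3.88, 3.19, 4.03 and -2.11. Its level was 7.32, 11.05, 12.00 and 6.68 in Cy5 and 11.19, 7.86, 7.98 and 8.79 in Cy3. As for Cxcl10 and Ccl2, Cy5 was high on arrays 2 and 3, and Cy3 was highest on array 1. Nfkbia, an inhibitor and direct target of NF-kB, had -3.09, 0.97, 1.62 and -2.28, Nfkbie had -3.52, 1.48, 2.46 and -2.34, Tnfaip3, a feedback inhibitor, had -2.87, 1.65, 2.72 and -0.81, and the receptor gene Tlr2 had -2.49, 2.26, 0.16 and -1.51. These 5 genes, picked for their wide span, were negative on arrays 1 and 4 and positive on arrays 2 and 3, as Cxcl1 and Cxcl3 were. The median ratio of the macrophage markers was positive on every array, at 1.31, 1.24, 2.998 and 1.05 on arrays 1 to 4. The cause of the differences between arrays was not tested.

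**Figure D3:**
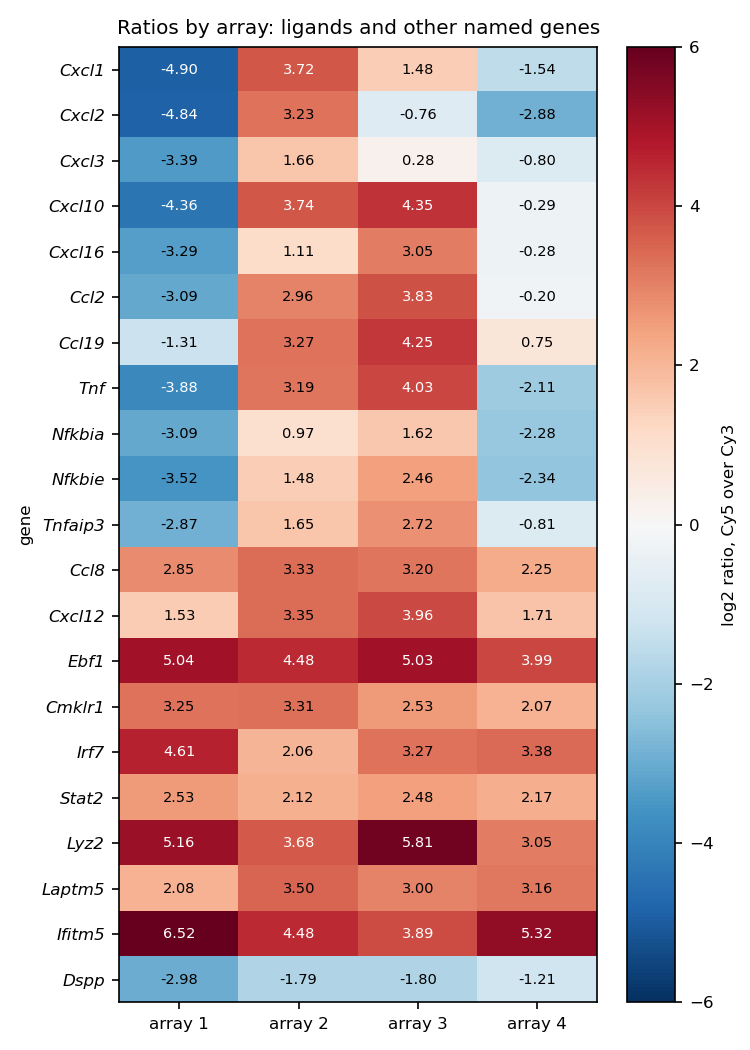
Log2 ratio of Cy5 (labelled odontoblast) over Cy3 (labelled osteoblast) on each of the 4 arrays for 21 genes, with the value written in each cell. The 7 ligands at the top and Tnf, Nfkbia, Nfkbie and Tnfaip3 are negative on array 1, while Ccl8, Cxcl12, Ebf1, Cmklr1, Irf7, Stat2, Lyz2, Laptm5 and Ifitm5 are positive on all arrays and Dspp is negative on all.

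Receptors had smaller ratios than many ligands. None of the 14 tested was called by limma, and 2 had an unadjusted p under 0.05, Cx3cr1 among them. Cx3cr1, the fractalkine receptor of macrophages, had 0.49, 0.45, 0.25 and 0.49 (adjusted p = 0.25), and its probe shares 20 bases with a probe of another feature. Ccr2, the receptor of Ccl2 and Ccl7, was above background on 1 array in Cy5 and on 3 in Cy3, with ratios of -0.22, -0.24, 0.01 and 0.12.

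The remaining CC receptors kept within narrow limits. Ccr4, Ccr6, Ccr7, Ccr8, Ccr9 and Ccr10 had mean ratios between -0.33 (Ccr4) and 0.11 (Ccr10), and their adjusted p-values ran from 0.417 (Ccr4) to 0.952 (Ccr6). Ccr8 was negative on all arrays, with values of -0.24, -0.27, -0.10 and -0.38, and no other receptor was. Ccr7, the receptor for Ccl19, had -0.21, 0.22, 0.18 and 0.19, so it did not show the swing of its ligand. Ccr1 was below background throughout, and Ccr3 was above it on 2 arrays in Cy5 and on none in Cy3.

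Cxcr7 is the older name, used in the files, of Ackr3, the scavenging receptor that removes Cxcl12. Its ratios were 0.58, -1.31, 0.72 and -1.86, with levels of 10.26, 9.30, 10.65 and 8.14 in Cy5 and 9.68, 10.61, 9.93 and 9.998 in Cy3. They had 2 signs, and the mean was -0.47 (SE 0.51, adjusted p = 0.654). Cxcr4, the signalling receptor for Cxcl12, was above background on 1 array in Cy5 and on none in Cy3 and could not be tested. Cxcr6, the receptor for Cxcl16, had -0.06, 0.09, -2.21 and -0.66, and its second probe had -0.24, 0.70, -1.42 and -0.46. Cxcr3, the receptor for the interferon-induced ligands, had 0.36, 0.18, -0.09 and 0.45 and was above background on 1 array in Cy3. Xcr1, a dendritic cell receptor, had -0.03, -1.15, 1.47 and -0.76, and Cxcr5 was above background on 1 array in Cy5 and on none in Cy3.

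Genes around the receptors were examined as well. Of 6 atypical receptors and close relatives tested, Cmklr1, the chemerin receptor of macrophages, was called higher in Cy5, with ratios of 3.25, 3.31, 2.53 and 2.07 (mean 2.79, adjusted p = 0.0202). Ackr4, which scavenges Ccl19 and Ccl25, was called higher in Cy3, with -1.43, -2.36, -2.08 and -1.55 (mean -1.86, adjusted p = 0.0319). Its level was 13.14, 13.15, 12.57 and 13.38 in Cy5 and 14.58, 15.51, 14.65 and 14.93 in Cy3, with no overlap between channels. Neither was called without any 1 of the 4 arrays. The brightest uncalled genes were Ackr2 (mean -0.66, adjusted p = 0.394) and Ackr1 (mean 0.41, adjusted p = 0.296).

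None of the 23 genes for signalling below the receptors was called by limma, with 2 at an unadjusted p under 0.05 toward Cy5 and 3 toward Cy3, and their median ratio was 0.07. The brightest were the G-protein genes Gnb1 (mean -0.15, adjusted p = 0.695) and Gnai2 (mean 0.27, adjusted p = 0.476). None of the 14 genes for processing or glycan binding was called, with 0 and 3 at an unadjusted p under 0.05 toward Cy5 and Cy3, and the brightest were the protease genes Mmp14 (mean 0.16, adjusted p = 0.668) and Mmp2 (mean -0.65, adjusted p = 0.292). Of 7 chemokines and relatives outside the naming rule none was called, with 1 in each direction at an unadjusted p under 0.05. The brightest were Cmtm7 (mean -0.73, adjusted p = 0.113) and Mif (mean 0.28, adjusted p = 0.724), while Pf4, a platelet and macrophage CXC chemokine named after its values were seen, had 0.11, 2.54, 3.81 and 1.22. In all, 5 of 92 pathway genes tested were called, which is 5.43% against 2.19% of all genes. The lists were chosen with earlier results of these data known, so the difference between these shares supports no conclusion.

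Detection was also counted per channel. Of the 54 genes, 36 were well above background in Cy5 on all 4 arrays and 30 in Cy3, and 4 were below it in both channels on all arrays (Ccl22, Ccl28, Ccr1 and Cxcl13). In Cy3, 13 genes were never above background, and in Cy5 these 4 were the only such genes. On arrays 1 to 4 the number of members above background was 39, 44, 45 and 44 in Cy5 and 35, 35, 31 and 41 in Cy3. Over all probes the share above background was 75.5% to 85.2% per array in Cy5 and 67.8% to 80.9% in Cy3, so the channels differed in the same direction for the array as a whole. For receptors the counts were 13, 14, 15 and 15 of 19 in Cy5 and 11, 11, 7 and 14 of 19 in Cy3, and array 3 had the fewest in Cy3.

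**Figure D4:**
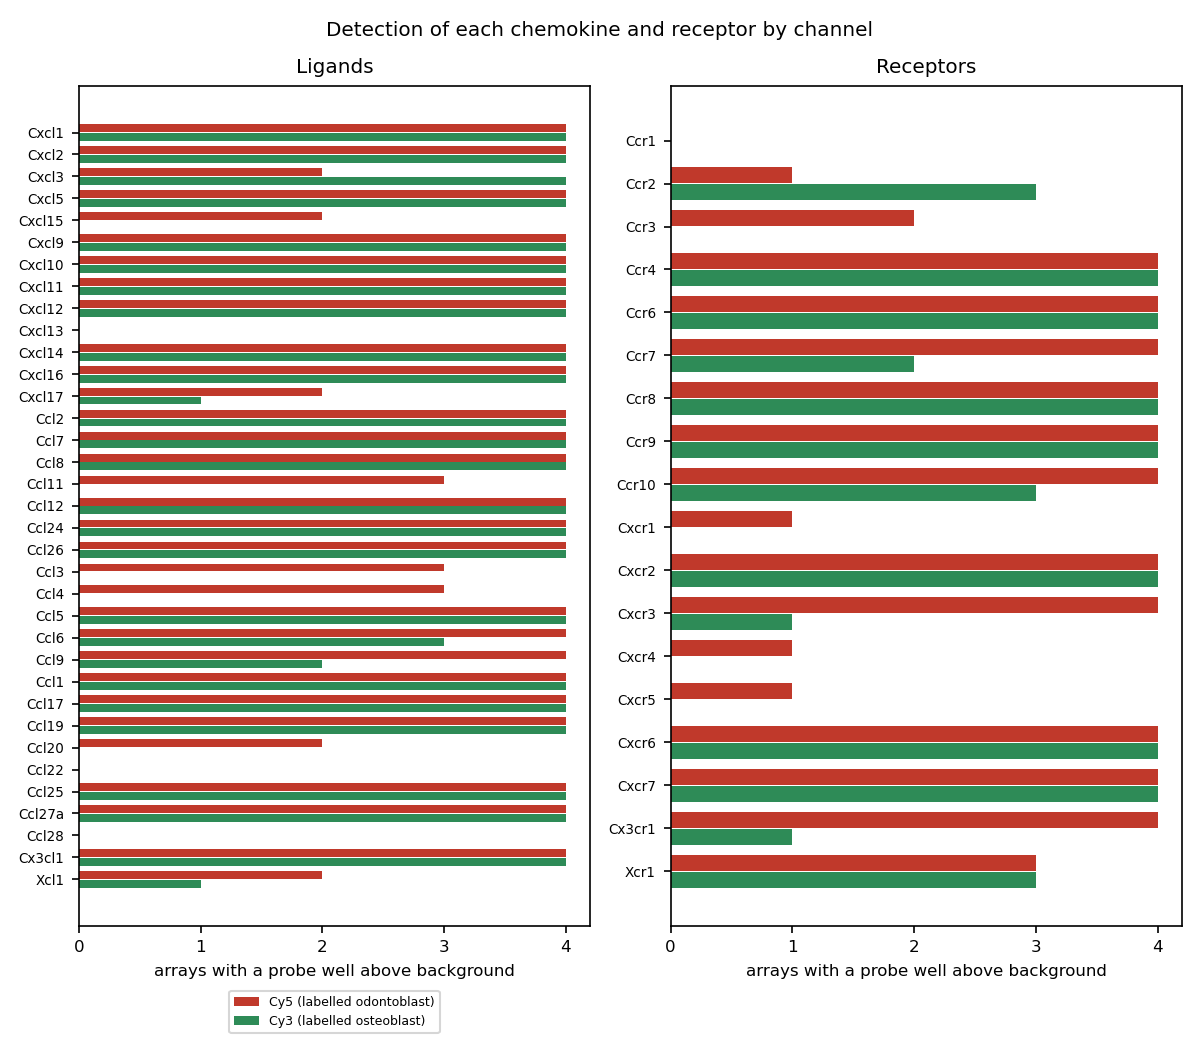
Number of arrays, 0 to 4, on which each of the 35 ligands (left panel) and 18 of the 19 receptors (right panel) had a probe well above background, with Cy5 (labelled odontoblast) above Cy3 (labelled osteoblast) in each pair of bars. Most ligands reach 4 arrays in both channels. The ligands Ccl3, Ccl4, Ccl11, Ccl20 and Cxcl15 and the receptors Ccr3, Cxcr1, Cxcr4 and Cxcr5 have bars in Cy5 alone. Ccl22, Ccl28, Cxcl13 and Ccr1 have none.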

How the data were processed

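The authors' scanner output, from Agilent Feature Extraction 10.7.3.1 per the file headers, gives mean spot intensity and median background intensity per channel, not normalized. The deposited files also hold the software's log10 ratio and its flags, which are scores of 0 or 1. A deposited value table lay within 0.0001 log10 of that ratio for at least 99.3% of probes, so its direction is Cy5 over Cy3. Its columns had medians of 0. The sources used here do not give any later step of the authors.

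In limma 3.58.1 under R 4.3.3, background was corrected with normexp (offset 50) and arrays were normalized with loess, with 3671 control spots at weight 0. The 949 spot values marked as outliers were set to missing, and 0 spots were saturated. Spots of a probe were averaged. A probe had to be well above background on 3 or more of 4 arrays in 1 and the same channel, which left 44239 of 55681 probes. The brightest probe represented a gene. The log2 ratio was tested with lmFit and eBayes, two-sided, over 37366 features. An exact sign-flip test on 4 arrays cannot give a p below 0.125 and was not used. Channel levels were Aquantile-normalized, and marker sums are of linear intensity. Gene symbols came from RefSeq (GRCm38.p6): 27235 probes matched by accession, 3581 by symbol, 1092 kept an older name and 23773 had none. Probe coordinates are the files' own, on mm9; exon or UTR positions were not used here. In a simulation of this comparison (37366 features), 0% of 2-fold, 34% of 4-fold, 82% of 8-fold and 96% of 32-fold changes were called, with 6 false calls. The simulated spread was that fitted over all features. The median SD between arrays was 0.54 for genes tested and 1.03 for members tested, so these shares do not carry over to members with a wide spread.

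The genes described, the pathway lists and the marker lists were chosen with earlier results of these data known. Named members were those called, those well above background in at least 1 channel on all 4 arrays, and those with 1 sign and a mean of at least 1 in size. For pathway lists the called genes and up to 2 bright uncalled genes were named, and others are marked as chosen after their values were seen. A single member is counted but not reported here by name. No set test was run. Alternatives were other background corrections, normalizations, filters, probe summaries and tests, the software's ratio, the deposited table, and each array left out. The arrays shared 1 slide, so no batch could be tested.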

Additional observations from a re-analysis of the deposited data

Results flagged for a closer look

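Each of the 42 members tested was examined for an array far from the other 3, by the gap to the nearest array over the whole range, against Dixon's critical value for 4 values. Chance alone marks about 1 in 20, and 2 of the 42 were marked. The ratio of Ccr7 was -0.21 on array 1 and 0.18 to 0.22 on the others, a gap of 0.919 of the range. The ratio of Cx3cr1 was 0.25 on array 3 and 0.45 to 0.49 on the others, a gap of 0.834 of the range. Both differences are under 0.5 on the log2 scale, and in Cy3 Ccr7 was above background on 2 arrays and Cx3cr1 on 1. The wide array differences of Cxcl1, Cxcl2, Cxcl10 and Ccl2 were not marked by this measure.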

How the results depend on the processing

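The normalization moved the counts most. The 417 genes called became 1364 with median centring, 12526 with no normalization within arrays, 270 with the software's log ratio or the deposited table and 1 with an unmoderated statistic, and 0 to 178 when 1 array was left out (2960 to 4038 genes at an unadjusted p under 0.05). Members called numbered 3 with median centring (Ccl8, Cxcl11 and Cxcl12), 27 with no normalization, 0 with the unmoderated statistic (4 at an unadjusted p under 0.05) and 0 to 1 without 1 array. The 5 pathway genes called became 9 with median centring, 45 with no normalization, 2 with the software's ratio or the deposited table, 0 with the unmoderated statistic and 0 to 2 without 1 array. The share of called genes higher in Cy5 was 59.2%, and 82.5% and 98.6% under the first 2 of these settings, which moved the median gene to 0.20 and 1.01. The median of the members was then 0.32 and 1.13. With no normalization 14 members with a negative mean turned positive, 5 of them called (Ccl1 0.70, Ccl25 0.77, Ccr8 0.60, Ccr9 0.66 and Cxcr2 0.90), and of the 14 only Cxcl1 (1.04) and Cxcl14 (1.03) lay above the median gene. Ccl8 was called in 12 of 16 alternatives, with ratios of 2.77 to 3.92, and not with the unmoderated statistic (adjusted p = 0.15) or without array 1, 2 or 4. Cxcl12 was called in 2 of 16, with ratios of 2.20 to 3.68. Of the 42 members, 3, 3, 7 and 4 changed sign without array 1, 2, 3 and 4, which is 11 different members, none with a mean of at least 1 in size. Cxcl1 (-0.31) reached 1.22 without array 1 and 0.10 without array 4, Cxcl3 (-0.57) 0.38 without array 1, Cxcl10 (0.86) -0.10 without array 2 and -0.30 without array 3, and Cxcl16 (0.14) -0.18 and -0.82 without these, while Ccl2 (0.87) reached -0.11 without array 3. The others were Ccl27a, Cxcl14, Cxcr2, Ccr6, Ccr10 and Xcr1. No paired analysis was possible because there is 1 group of arrays, whose ratios already pair the RNAs. The causes were not tested.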
